A study of Mus musculus with 10 samples.

Results

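The genes described here encode respiratory complex I, the NADH dehydrogenase of the inner mitochondrial membrane, and some of the proteins that build it. They were chosen by name and biotype alone, as every gene whose symbol begins with Nduf and that the deposited annotation calls protein coding. This gave 46 of the 54532 genes in the tables, of which 22046 are protein coding. The subunit genes (Ndufa, Ndufb, Ndufc, Ndufs and Ndufv) number 38 and were kept apart from the 8 assembly factor genes (Ndufaf). Another 5 Nduf symbols belong to pseudogenes or noncoding transcripts and were not counted as members.

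Complex I oxidises NADH to NAD+, passes the electrons along iron-sulphur clusters to ubiquinone and pumps protons out of the matrix. Its matrix arm holds the nuclear-encoded core subunits that carry flavin and the clusters. Its membrane arm holds the core subunits made from mitochondrial DNA, and accessory subunits surround both arms. Assembly factors help to build the complex and are not part of the finished enzyme. In the cochlea, sensory hair cells, neurons of the spiral ganglion and the stria vascularis all depend on mitochondrial respiration.

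RNA-seq was done on the cochlea of mtKeima mice aged 12 months, a line in which both groups carry the mt-Keima reporter of mitophagy. NR-treated mice (n = 5) drank water with nicotinamide riboside, a precursor of NAD+, at 7 mg/ml (24 mM) from 2 months of age for 10 months, and non-treated mice (n = 5) drank regular water. The question is whether the transcripts of the enzyme that regenerates NAD+ from NADH differed in level with long NR supplementation. Replicate numbers are those of the sample names, and each file holds the counts of 1 sample of its group.

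Total counts lay between 17060379 and 24419230 per sample. Levels are given as CPM, the counts of a gene per 1000000 counts of its library after scaling with TMM factors, and fold changes are log2 values of NR-treated over non-treated from edgeR. The sex label is female, yet Xist had 2 to 8 reads and Ddx3y had 1235 to 1928 reads in the 10 samples, and the methods of the study describe male mice for cochlear RNA. At an unadjusted p of 0.05 by edgeR, 10 of 12 tested skeletal muscle markers and 5 of 6 adipocyte markers were called higher in NR-treated mice. Called lower were 6 of 6 markers of supporting cells and tectorial membrane and 4 of 7 of stria vascularis and spiral ligament. Over all tested genes 4.83% were called higher and 4.88% lower. Hair cell markers had 0 of 6 called, with all 6 estimates below 0 and a median log2 fold change of -0.46. Summed muscle markers ranged from 23.2 to 1143 CPM in NR-treated and from 23.0 to 115 CPM in non-treated mice, with Tnnc2 and Myh7 at 10 reads or fewer. Summed adipocyte markers ranged from 68.4 to 199 CPM and from 17.0 to 63.1 CPM, and supporting cell markers from 301 to 546 CPM and from 389 to 1103 CPM. Summed stria and ligament markers ranged from 3570.3 to 5352 CPM in NR-treated and from 3998 to 6740 CPM in non-treated mice, and hair cell markers from 108 to 199.99 CPM and from 116 to 345 CPM. Markers of cochlear hair cells, supporting cells, stria vascularis and spiral ligament (19 genes) were detected in the tissue, with none at 0 in every library. The part of these markers in the results below was not tested. In bulk tissue, fewer cells of a type and less RNA per cell cannot be told apart.

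All 46 members passed the filter on low counts and were tested. By mean CPM over the samples, the median member stood at percentile 81.0 of all 18329 tested genes, with subunits at 84.5 and assembly factors at 51.6. Mean levels of subunits in non-treated mice started at 4.11 CPM for Ndufa4l2, with Ndufa4 at 209 CPM near the upper end, and those of assembly factors ran from 6.38 CPM for Ndufaf6 to 30.2 CPM for Ndufaf3. The summed level of the 38 subunits was 3388, 3641, 3755, 3695 and 3419 CPM in NR-treated replicates 1 to 5. It was 3345, 3644, 3385, 3294 and 3713 CPM in non-treated replicates 1 to 5. The groups overlapped, with 3580 ± 166 CPM (SD, n = 5) against 3476 ± 189 CPM (SD, n = 5). Summed assembly factors came to 165 ± 10.7 CPM (SD, n = 5) and 159.9 ± 2.07 CPM (SD, n = 5).

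**Figure D1:**
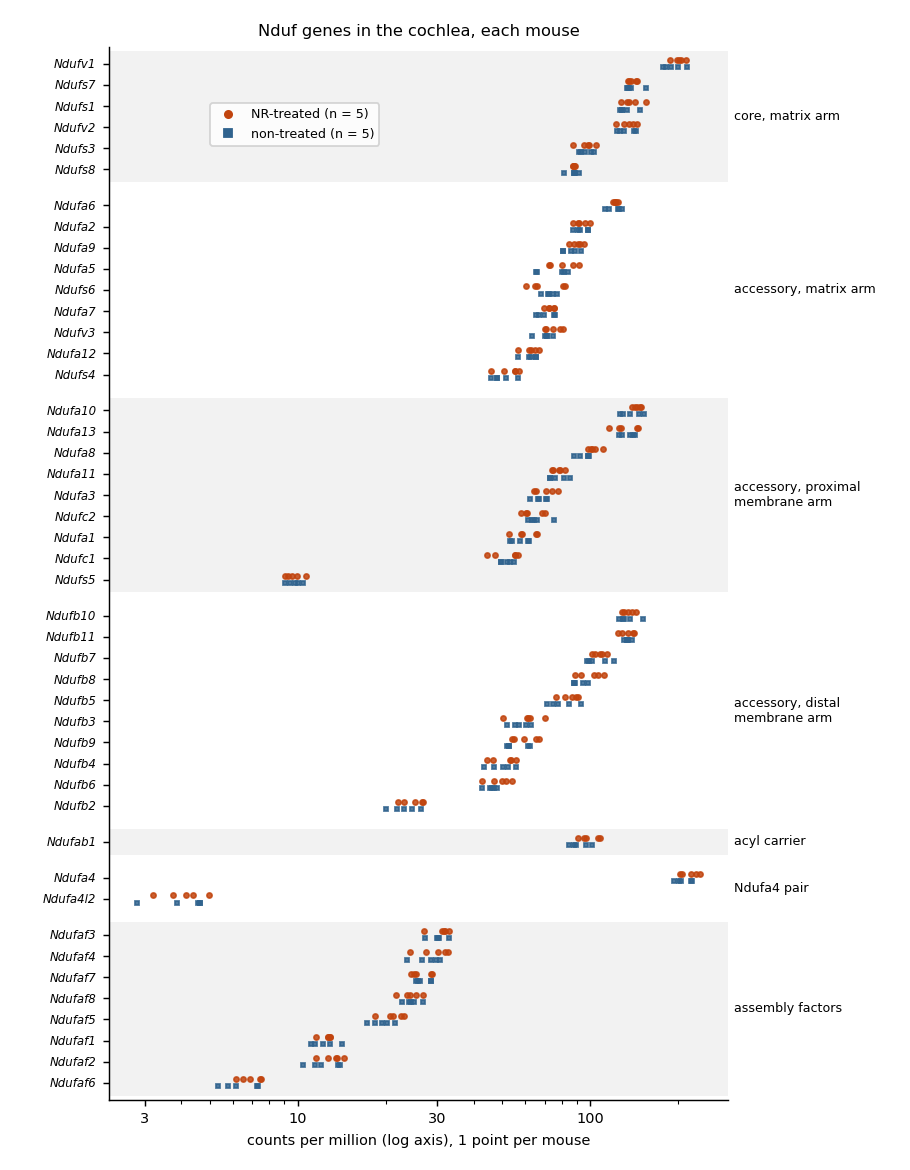
Level of 45 of the 46 Nduf genes in each mouse, in CPM on a log axis, with circles for the 5 NR-treated and squares for the 5 non-treated mice and genes grouped by their place in complex I. Core matrix arm subunits lie near the top of the range, Ndufa4l2 and Ndufs5 lie well below the other subunits, and the circles and squares of every gene shown overlap.

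No member differed between the groups at an adjusted p of 0.05 (edgeR quasi-likelihood test, Benjamini-Hochberg over all tested genes), and the smallest adjusted p among members was 0.505. In this edgeR fit no gene of the whole table passed that threshold either (0.0% of genes tested). The study, which used DESeq2, does list genes at an adjusted p of 0.05 or less, among them Cidec, Plin1 and Pck1. A count of all genes past an adjusted p by DESeq2 is not given here. At an unadjusted p of 0.05, 1 of 38 subunits was called higher in NR-treated mice and 0 were called lower. Over all tested genes, 4.83% were called higher, 4.88% lower and 9.71% in either direction. DESeq2 likewise called 1 subunit at an unadjusted p of 0.05 and 0 at an adjusted p of 0.05. Its background at the unadjusted p was 6.58% of genes in either direction. That share is over 33153 genes without the filter on low counts, so it is not on the same base as that of edgeR. Of the 8 assembly factors, 0 were called by either tool at an unadjusted p of 0.05. No member had every NR-treated mouse above, or every one below, all non-treated mice, which held for 0.769% and 0.878% of tested genes.

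The log2 fold changes were small throughout. Among subunits they ran from -0.053 to 0.14 with a median of 0.051, beside a median of -0.0092 over all tested genes. The subunit median was 0.079 without non-treated replicate 2, 0.032 without NR-treated replicate 4 and 0.028 without non-treated replicate 4. The estimate was above 0 for 29 of 38 subunits and 6 of 8 assembly factors, against 47.1% of tested genes. With scaling by library size alone, 35 subunits and 8 assembly factors were above 0. With all genes of at least 1 read kept, 35 and 7 were, and with genes at 1 CPM in 5 samples, 35 and 6. The share of all tested genes above 0 under these settings is not given here. Subunits share the same 10 libraries and moved together within them, so that these estimates are not separate observations. The 95% interval lay within 0.3 of 0, a fold of 1.23, for 41 of 46 members, against 37.5% of tested genes. It lay within 0.2 of 0, a fold of 1.15, for 21 members, against 17.0% of tested genes. Among 39 nuclear subunits of complexes II to V, the interval lay within 0.3 of 0 for 38 and within 0.2 for 27. Narrow intervals were thus not particular to the members. The widest interval among members was that of Ndufa4l2, from -0.39 to 0.38.

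**Figure D2:**
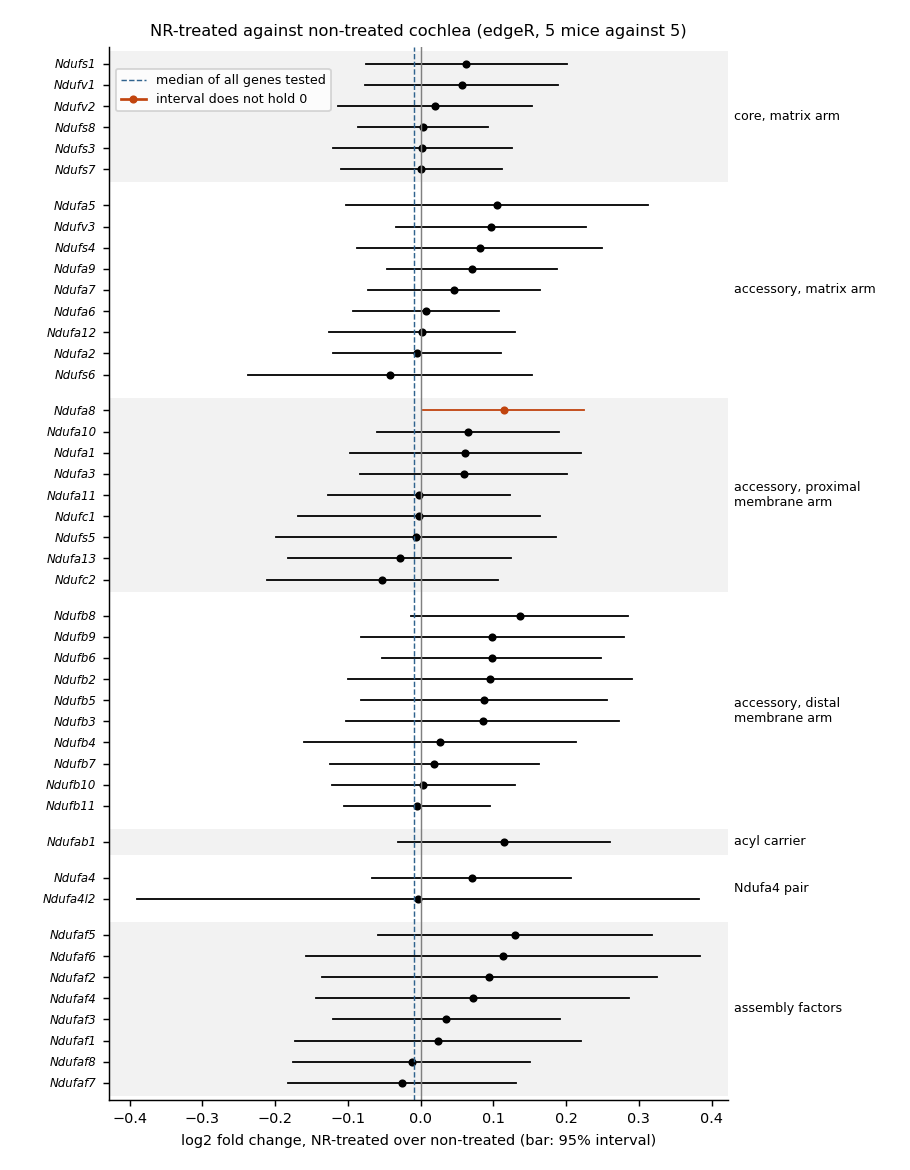
Log2 fold change of 45 of the 46 Nduf genes, NR-treated over non-treated, with its 95% interval from edgeR (5 mice against 5). The dashed line marks the median of all tested genes at -0.0092, and Ndufa8 is the member whose interval does not hold 0.

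Ndufa8 is an accessory subunit on the intermembrane space side of the membrane arm, with cysteine motifs typical of proteins imported there. It lies at chr2:36036326-36049406 (GRCm38, minus strand). Its level was 98.3, 101, 111, 100.4 and 104 CPM in NR-treated mice and 98.7, 98.6, 92.2, 87.8 and 98.0 CPM in non-treated mice. NR-treated replicate 1 fell within the non-treated values, and the other 4 NR-treated mice lay above all of them. Its log2 fold change was 0.11 (SE 0.050, 95% interval 0.0029 to 0.23, unadjusted p = 0.045 and adjusted p = 0.505 by edgeR's quasi-likelihood test). The call at an unadjusted p of 0.05 was lost without NR-treated replicate 3 or 5 and without non-treated replicate 3 or 4, where the estimates were 0.097, 0.12, 0.12 and 0.090. It was also lost without both libraries of highest muscle marker sum (NR-treated replicates 3 and 5) and without both of highest hair cell marker sum (non-treated replicates 3 and 4).

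The core subunits of the matrix arm carry out the electron transfer. Ndufv1 binds NADH and the flavin, Ndufv2, Ndufs1, Ndufs7 and Ndufs8 hold iron-sulphur clusters, and Ndufs3 lies toward the quinone site. All 7 estimates were above 0, with a median of 0.020, and 0 of 7 were called. Ndufv1 measured 187, 212, 198, 201 and 204 CPM in NR-treated mice and 182, 199.96, 188, 178 and 214 CPM in non-treated mice. The highest value belonged to non-treated replicate 5 and the lowest to non-treated replicate 4, so the non-treated group spanned the NR-treated one.

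Ndufs1, the largest of the core subunits, measured 128, 155, 142, 136 and 134 CPM in NR-treated mice and 129, 133, 128, 127 and 148 CPM in non-treated mice. Ndufv2 measured 123, 144, 140.2, 136 and 131 CPM, against 130.2, 144, 126, 123 and 141 CPM. Ndufs3 measured 87.3, 105, 99.3, 98.3 and 95.5 CPM, against 91.7, 100.5, 95.7, 93.2 and 103 CPM. In these 3 genes NR-treated replicate 2 was the highest of the 10 mice and the groups overlapped. The log2 fold changes were 0.063 for Ndufs1 (SE 0.063), 0.020 for Ndufv2 (SE 0.061) and 0.0026 for Ndufs3 (SE 0.056).

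Ndufs7, which carries the last cluster before ubiquinone, measured 138, 135, 145, 136 and 144 CPM in NR-treated mice and 135, 134, 135, 138 and 155 CPM in non-treated mice. Ndufs8 measured 87.8, 87.2, 88.1, 88.7 and 87.1 CPM, against 81.4, 88.8, 88.1, 88.1 and 91.3 CPM. Ndufs8 had the smallest spread between mice of all subunits, with a within-group SD of 0.044 on the log2 CPM scale and a fold change of 0.0037 (95% interval -0.086 to 0.093). In NR-treated mice its SD was 0.657 CPM around a mean of 87.8 CPM, and in non-treated mice 3.67 CPM around 87.6 CPM. The difference in spread between the groups was not tested.

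The 9 accessory subunits of the matrix arm had a median log2 fold change of 0.046, with 7 of 9 above 0 and 0 called. Ndufa5, Ndufv3 and Ndufs4 had the highest estimates of the group, at 0.11, 0.097 and 0.081, with intervals that all held 0. Ndufs6, a zinc-binding subunit added late in assembly, had the lowest estimate there at -0.042 (SE 0.089). It measured 60.2, 64.7, 80.7, 82.0 and 65.6 CPM in NR-treated mice and 67.7, 77.2, 71.9, 72.5 and 74.4 CPM in non-treated mice. The NR-treated values of Ndufs6 lay on both sides of the non-treated range, with replicates 3 and 4 above it and replicates 1, 2 and 5 below it.

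Ndufa2, a small matrix arm subunit with a thioredoxin-like fold, measured 91.0, 87.4, 99.6, 96.2 and 91.3 CPM in NR-treated mice and 92.1, 98.5, 91.0, 87.0 and 98.5 CPM in non-treated mice. The groups covered the same range, and the estimate was -0.0051 (SE 0.052). Per kilobase of gene length it was the highest subunit, at 163 CPM per kilobase in non-treated mice.

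The 9 accessory subunits placed in the proximal membrane arm had a median log2 fold change of -0.0022, with 4 of 9 above 0. Ndufa8 belongs to them and was the only one called. Ndufc2 had the lowest estimate of all subunits, at -0.053 (SE 0.072, 95% interval -0.21 to 0.11). It measured 60.5, 69.9, 60.9, 68.2 and 58.1 CPM in NR-treated mice and 63.1, 75.1, 64.2, 61.2 and 66.0 CPM in non-treated mice. Non-treated replicate 2 was the highest and NR-treated replicate 5 the lowest of the 10.

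The Ndufb genes encode accessory subunits of the distal membrane arm, and 10 were measured. Their median log2 fold change was 0.086, the highest of the groups with more than 1 gene, with 9 of 10 above 0 and 0 called. Whether the groups of subunits differ from each other was not tested. Ndufb8, whose protein is often used to follow assembled complex I, had the highest estimate of all members, at 0.14 (SE 0.068, unadjusted p = 0.070 and adjusted p = 0.545 by edgeR). Its level was 89.0, 103, 112, 106 and 92.8 CPM in NR-treated mice and 88.0, 94.5, 88.0, 89.1 and 98.6 CPM in non-treated mice. NR-treated replicates 2, 3 and 4 lay above every non-treated mouse, and replicates 1 and 5 lay among them.

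Ndufb6, Ndufb9, Ndufb2, Ndufb3 and Ndufb5 followed with estimates between 0.085 and 0.099. Ndufb2 had 22.0, 26.5, 26.8, 25.2 and 23.1 CPM in NR-treated mice and 23.1, 26.3, 20.03, 21.9 and 24.5 CPM in non-treated mice, and the groups overlapped. At 4.12 CPM per kilobase it was the second lowest subunit by length, and its listed length of 5628 bases exceeds the 4371 bases of its principal transcript in GENCODE M21.

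Ndufab1, the mitochondrial acyl carrier protein, binds complex I in the matrix arm and in the distal membrane arm and also serves mitochondrial fatty acid synthesis. It measured 95.3, 108, 107, 97.1 and 90.9 CPM in NR-treated mice and 89.7, 96.6, 84.7, 87.8 and 101 CPM in non-treated mice. NR-treated replicates 2 and 3 lay above all non-treated mice. Its log2 fold change came to 0.11 (SE 0.066, 95% interval -0.031 to 0.26, adjusted p = 0.598 by edgeR).

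Ndufa4 was named as a complex I subunit and its protein is now placed in complex IV, while Ndufa4l2 is its relative known as a target of hypoxia signalling. Ndufa4 was among the most abundant subunit genes by CPM, with 203, 229.7, 221, 237 and 206 CPM in NR-treated mice and 204, 221, 201, 194 and 223 CPM in non-treated mice. Ndufa4l2 was the least abundant, with 4.14, 4.38, 3.20, 4.98 and 3.76 CPM against 4.57, 4.62, 2.83, 3.88 and 4.64 CPM. The pair stood at 151 and 3.75 CPM per kilobase in non-treated mice. Ndufa4l2 rested on 65 to 114 reads per sample and had the largest spread of the subunits, with a within-group SD of 0.27 on the log2 scale. Its estimate was -0.0032 (SE 0.18), and that of Ndufa4 was 0.070 (SE 0.062).

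The order of subunits by level per kilobase depended on the length used. With the lengths listed in the files, Ndufa2, Ndufa4 and Ndufb11 led, at 163, 151 and 148 CPM per kilobase. With 1 principal transcript per gene from GENCODE M21, a choice made after the data were seen, Ndufa4, Ndufa6 and Ndufb10 led, and Ndufb7 moved from rank 31 to rank 4. Its listed length of 4522 bases is 7.26 times the 623 bases of that transcript. Ndufa4l2, Ndufb2 and Ndufs5 held the last places by both lengths.

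The assembly factors had a median log2 fold change of 0.053. It was 0.095 without NR-treated replicate 1, 0.082 without NR-treated replicate 5 and 0.020 without non-treated replicates 3 and 4. Ndufaf5, which hydroxylates an arginine of Ndufs7, had the highest estimate at 0.13 (SE 0.086, adjusted p = 0.644 by edgeR). It measured 21.3, 20.7, 23.1, 22.6 and 18.4 CPM in NR-treated mice and 17.3, 20.2, 19.4, 18.4 and 21.6 CPM in non-treated mice. NR-treated replicates 3 and 4 were above all non-treated mice, and the other NR-treated mice lay among them. Ndufaf7, a methyltransferase of the mitochondrial matrix, had the lowest at -0.025 (SE 0.071), with 24.3, 28.6, 28.7, 24.9 and 25.4 CPM against 25.3, 26.1, 25.7, 28.5 and 28.7 CPM. The groups of Ndufaf7 overlapped. The other 6 assembly factors had estimates from -0.012 for Ndufaf8 to 0.11 for Ndufaf6, and 3 of the 8 had intervals reaching beyond 0.3.

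**Figure D3:**
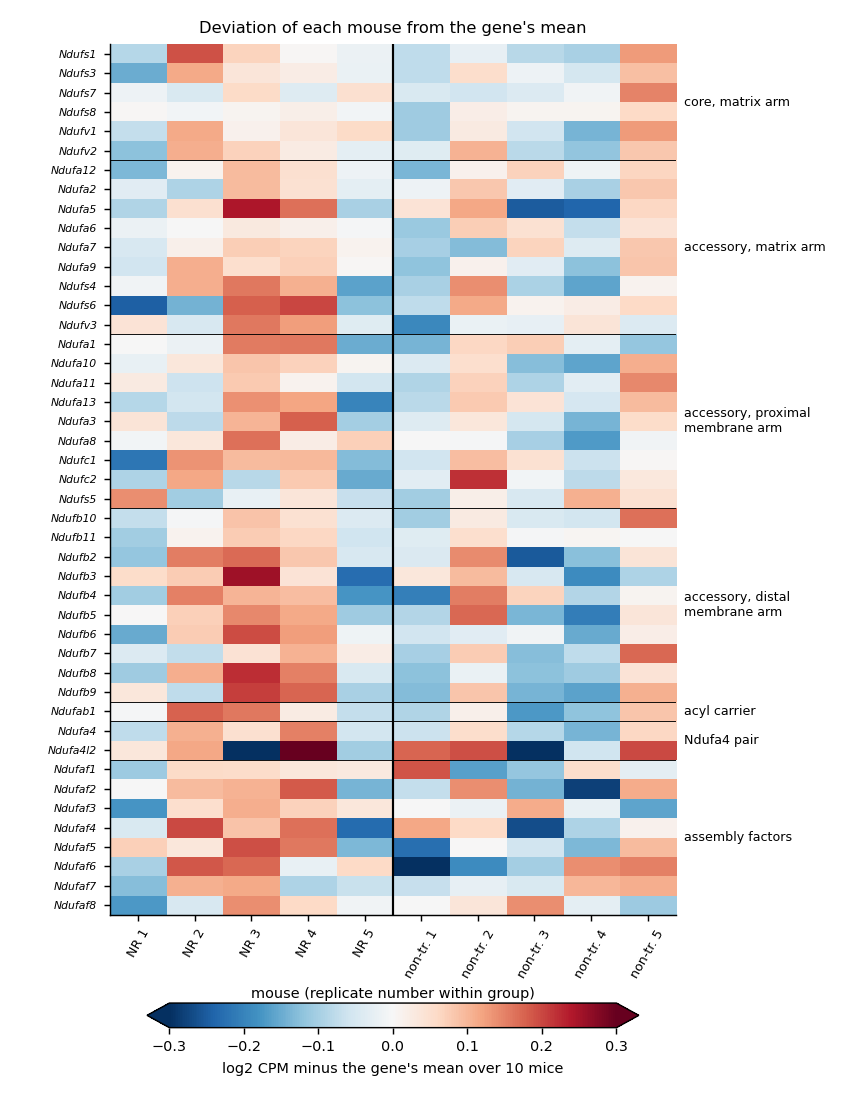
Deviation of 45 of the 46 Nduf genes in each mouse from the gene's mean over 10 mice, as log2 CPM, with red above and blue below the mean and the colour scale capped at 0.3 on either side. NR-treated replicate 3 and non-treated replicate 5 are mostly red and non-treated replicate 4 mostly blue.

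Subunit levels differed between libraries of the same group. NR-treated replicate 3 held the highest value of 13 of 38 subunits and non-treated replicate 5 that of 9, while non-treated replicate 4 held the lowest value of 12 and non-treated replicate 1 that of 8. Over all tested genes, NR-treated replicate 3 held the highest value of 7.28% and non-treated replicate 4 the lowest of 13.7%. The mean deviation of the subunits, on the log2 scale, ranged from -0.059 to 0.092 in NR-treated mice and from -0.089 to 0.064 in non-treated mice. Summed neuron markers followed the subunits in some libraries only. They were 4410 CPM in NR-treated replicate 3 and 4225 CPM in non-treated replicate 5, and 3353, 2766 and 3012 CPM in non-treated replicates 1, 3 and 4. NR-treated replicates 1 and 5, whose subunit sums were low, had 3874 and 3964 CPM of neuron markers. NR-treated replicates 2 and 4 and non-treated replicate 2 had nearly the same, at 3982, 3977 and 3939 CPM. Their mean subunit deviations were higher, at 0.040, 0.083 and 0.058. Of 6 neuron markers tested, 5 had estimates above 0, with a median log2 fold change of 0.26. At an unadjusted p of 0.05 by edgeR, 1 was called higher in NR-treated mice, and none was at 0 in every library. The part of neuron content in the subunit levels was not tested. Without non-treated replicates 3 and 4, the median log2 fold change of the subunits was 0.013, with 22 of 38 above 0. Without NR-treated replicates 3 and 5 it was 0.069, with 32 above 0.

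The spread of members between mice was smaller than that of most tested genes. The median within-group SD of log2 CPM was 0.10 over the 46 members and 0.19 over all tested genes. Among the 13010 genes in the same range of levels the median SD was 0.15, and 40 of 46 members lay below it. That range runs from the lowest to the highest member and does not match each member on level. The median SD was 0.094 over 39 nuclear subunits of complexes II to V. It was 0.087 over 12 assembly factors without the Nduf name, so a small spread was not particular to the members. The median SE of the log2 fold change was 0.069 for members and 0.12 for all tested genes.

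**Figure D4:**
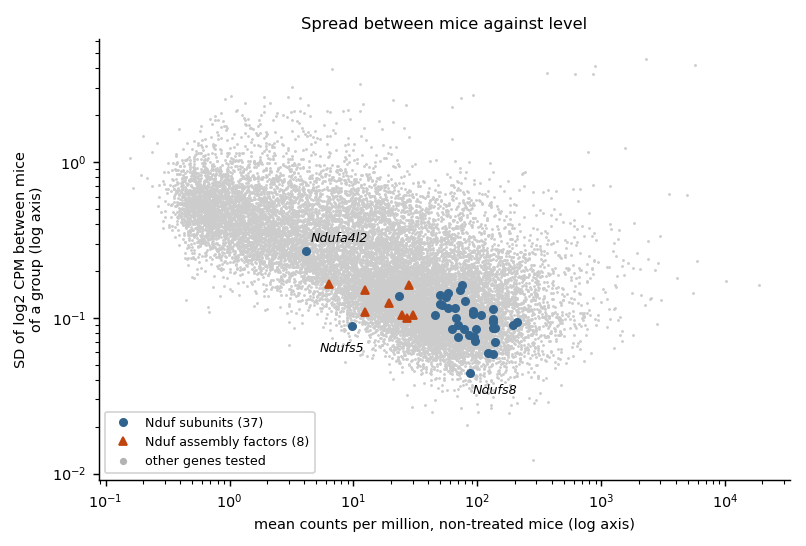
Within-group SD of log2 CPM between mice against mean level in non-treated mice, both on log axes, for all tested genes (grey), 37 of the 38 subunits (circles) and the 8 assembly factors (triangles). Most members lie in the lower part of the cloud, with Ndufs8 the lowest member at 0.044 and Ndufa4l2 the highest at 0.27.

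Ndufs5 stood far below the other accessory subunits, at a mean of 9.70 CPM (SD 0.654, n = 5) with NR and 9.75 CPM (SD 0.551, n = 5) without. The other proximal membrane arm subunits had at least 51.7 CPM in both groups. The genome holds a processed pseudogene of it, BC002163, at chr16:42955631-42955949 on the plus strand, while Ndufs5 lies at chr4:123712710-123718202 on the minus strand (GRCm38). Both are shown from the GENCODE M21 transcripts because their likeness bears on the count. The first 300 of 321 coding bases are shown, and capitals mark the bases that differ.

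Ndufs5 coding sequence: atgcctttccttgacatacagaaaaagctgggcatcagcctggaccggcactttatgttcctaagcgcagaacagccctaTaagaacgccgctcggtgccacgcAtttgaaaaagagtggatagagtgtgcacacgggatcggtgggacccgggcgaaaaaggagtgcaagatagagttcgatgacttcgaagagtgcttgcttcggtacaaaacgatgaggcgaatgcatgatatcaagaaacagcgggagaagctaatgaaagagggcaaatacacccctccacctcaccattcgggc
BC002163: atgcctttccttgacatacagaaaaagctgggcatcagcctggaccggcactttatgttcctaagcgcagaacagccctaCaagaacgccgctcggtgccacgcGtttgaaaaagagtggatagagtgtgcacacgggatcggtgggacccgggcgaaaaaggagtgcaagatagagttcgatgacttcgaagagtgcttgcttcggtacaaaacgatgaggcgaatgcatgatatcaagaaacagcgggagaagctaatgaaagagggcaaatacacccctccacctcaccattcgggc

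Of 319 aligned bases 317 were the same (99.4%). The differences, counted from the first base of the Ndufs5 start codon with the Ndufs5 base first, were T81C and A105G. Of the 247 stretches of 75 bases within the coding sequence 146 (59.1%) also occur in the copy, and of the 359 that reach outside the coding sequence 0 do. The copy as annotated has 319 bases, all aligned to coding sequence, so stretches reaching outside it could hardly match. Genome sequence around the copy was not searched. Counting with featureCounts in its default mode leaves out reads placed at several sites.

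BC002163 received 54.1, 55.6, 66.2, 62.9 and 56.0 CPM in NR-treated mice and 54.3, 55.04, 58.6, 54.4 and 62.5 CPM in non-treated mice. This was 5.06 to 6.92 times the level of Ndufs5 in every mouse. The sum of both was 68.7 ± 5.28 CPM (SD, n = 5) and 66.7 ± 3.68 CPM (SD, n = 5). Neither Ndufs5, at -0.0064 (SE 0.088), nor BC002163, at 0.050 (SE 0.070), was called between groups. How many reads of the pseudogene came from Ndufs5 transcripts was not tested. A lesser case was Ndufa12, which shares 22.0% of its stretches of 75 bases with the pseudogene Gm15920 at chr5:130188395-130188796. Gm15920 had 23.4 to 34.0 CPM over the 10 mice, or 0.38 to 0.53 times the level of Ndufa12.

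**Figure D5:**
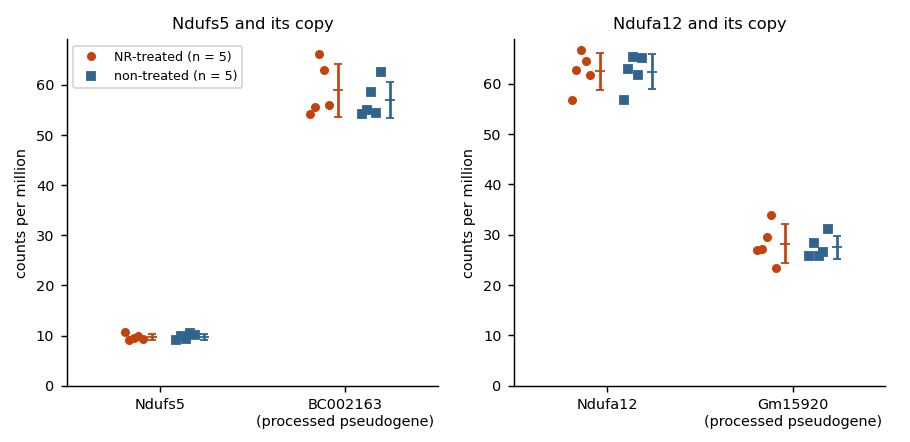
Levels in CPM of Ndufs5 and Ndufa12 and of their processed pseudogenes in each mouse, with the mean and SD beside the points (n = 5 per group) and axes from 0. BC002163 lies above 54 CPM in every mouse while Ndufs5 stays below 11 CPM, and Gm15920 lies below Ndufa12.

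Other members are also uncertain for their neighbours. In 7 members over 10% of the exon bases are shared with another gene, led by Ndufaf2 with 65.7% (B230220B15Rik), Ndufb6 with 39.0% (Smim27) and Ndufa13 with 29.98% (Tssk6), all on the other strand. The library kit named in the labels does not mark strand, so reads in such stretches cannot be given to a gene by strand. In its default mode featureCounts leaves out a read that overlaps several genes, so members can lose reads there. How many were lost was not tested. Over 10% of the stretches of 75 bases occur in another gene for 9 members. Among Nduf genes of other biotypes, Ndufb1-ps, listed as a noncoding RNA of a bidirectional promoter, had 663 to 1151 reads per sample and a log2 fold change of 0.089 (SE 0.089), and the other 4 had at most 12 reads in any sample.

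The mitochondrial genome encodes the core subunits of the membrane arm, and its 7 mt-Nd genes were compared beside the nuclear ones. Their median log2 fold change was 0.074, with 6 of 7 above 0 and 0 called, and SEs from 0.093 to 0.20. mt-Nd1 measured 3571, 5423, 4249, 4371 and 3539 CPM in NR-treated mice and 4216, 4268, 3997, 3978 and 4136 CPM in non-treated mice. NR-treated replicate 2 had the highest level of mt-Nd1, mt-Nd2, mt-Nd4, mt-Nd5 and mt-Nd6, and its mt-Nd sum was 16485 CPM, against 11035 to 13092 CPM in the other NR-treated and 12153 to 12603 CPM in the non-treated mice. Its summed nuclear subunits, at 3641 CPM, were not the highest. mt-Nd3 and mt-Nd4l were counted at 2.69 to 4.34 CPM and 3.42 to 6.37 CPM, far below the other mt-Nd genes.

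Of 12 assembly factors without the Nduf name, among them Acad9, Ecsit and Tmem126b, which work with Ndufaf1, 0 were called and the median log2 fold change was -0.0066 with 4 of 12 above 0. Ecsit had the highest estimate at 0.098 (SE 0.068). Nuclear subunits of complexes II to V, 39 genes, had a median of 0.022 with 27 above 0 and 0 called. By complex the medians were 0.0072 for complex II, 0.016 for III, 0.025 for IV and 0.025 for V, beside 0.051 for the complex I subunits, and the difference between complexes was not tested.

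Promoter sequences of 40 of the 46 members were found in the RefSeq table (GRCm38.p6), from 250 bases before to 50 bases after each start. They were searched on both strands for 4 motifs of factors known for nuclear genes of respiration. The NRF1 motif, GCGCA followed by any base and then GCGC, was present in 9 of 40 members (22.5%), against 5.19% of 27025 genes. The YY1 motif AAGATGGCG was present in 6 of 40 (15.0%), against 1.64%, and the ETS motif CCGGAAG in 6 of 40 (15.0%), against 9.93%. The ERR motif TCAAGGTCA was in 0 of 40, against 0.47%. Median GC content of the promoter windows, with 1 window per gene, was 59.3% for the members and 52.7% for all genes in the table. Ndufs6 held both NRF1 and YY1 motifs and Ndufaf8 both ETS and YY1 motifs, at separate bases, and 21 members held none. A match is a description of these windows and does not show that a factor binds.

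The NRF1 matches are printed because Ndufa8, the member called at an unadjusted p of 0.05, is among them. Capitals mark the motif, and the strand is that of the gene. In Ndufa6, Ndufa8 and Ndufs6 the motif lies on the other strand, so the capitals there spell its reverse complement.

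Ndufa11, chr17:56717692-56717721, plus strand: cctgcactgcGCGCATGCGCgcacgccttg
Ndufa5, chr6:24527697-24527726, minus strand: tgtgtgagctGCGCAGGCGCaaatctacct
Ndufa6, chr15:82354249-82354278, minus strand: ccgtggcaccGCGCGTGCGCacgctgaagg
Ndufa8, chr2:36049349-36049378, minus strand: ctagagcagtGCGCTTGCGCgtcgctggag
Ndufaf4, chr4:24897960-24897989, plus strand: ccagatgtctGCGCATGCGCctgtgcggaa
Ndufaf5, chr2:140170652-140170681, plus strand: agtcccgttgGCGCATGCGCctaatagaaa
Ndufb4, chr16:37654371-37654400, minus strand: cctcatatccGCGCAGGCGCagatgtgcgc
Ndufb4, chr16:37654428-37654457, minus strand: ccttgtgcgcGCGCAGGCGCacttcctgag
Ndufb4, chr16:37654540-37654569, minus strand: gagaagcagtGCGCACGCGCagaatacgcg
Ndufs5, chr4:123718265-123718294, minus strand: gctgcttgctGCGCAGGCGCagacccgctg
Ndufs6, chr13:73328479-73328508, minus strand: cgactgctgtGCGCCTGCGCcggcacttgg

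In Ndufa8 the match began 30 bases before the RefSeq start. The printed window lies within the gene ends given above for Ndufa8, chr2:36036326-36049406, so by those ends the match is not upstream of the gene. The log2 fold changes of the 9 genes were 0.11 for Ndufa8, 0.11 for Ndufa5, 0.13 for Ndufaf5, 0.072 for Ndufaf4, 0.027 for Ndufb4, 0.0075 for Ndufa6, -0.0022 for Ndufa11, -0.0064 for Ndufs5 and -0.042 for Ndufs6. They spanned most of the range of all members.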

How the data were processed

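Cochlear RNA of 10 mtKeima mice, 5 NR-treated and 5 non-treated, was sequenced by a service company from a library kit that does not mark strand. The values the authors deposited are raw read counts per gene, with no normalization, made with STAR version 2.6.1d on mm10 and featureCounts version 1.5.0 after filtering of reads, as named in the submitters' processing notes. The annotation release is not given in the sources used here. Gene models were compared with GENCODE M21, which holds all 46 members, 42 of them with the same ends and length. Reads were not analysed here.

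Counts were tested with edgeR version 4.0.16 in R version 4.3.3 (filterByExpr, TMM, glmQLFit and glmQLFTest), as NR-treated over non-treated mice without covariates, on 18329 genes, with Benjamini-Hochberg adjustment over all of them. The 95% intervals come from the same fit. DESeq2 version 1.42.0, used by the authors in version 1.26.0, was an alternative. Other alternatives were the scaling, the filter on low counts, robust dispersion, a replicate block and leaving out samples. Depth limits the precision of genes with few reads. CPM use TMM-scaled library sizes, which lay between 17277249 and 24712455, and log2 CPM a prior count of 2. Python version 3.11.15 was used for sequences and figures. No pair of samples had counts within sampling noise of each other. The labels give no batch, and p-values set the difference between groups against the spread between these samples.

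The members, the gene and marker lists and the motifs were chosen with earlier results of these data known. Values in every sample are given for members or mt-Nd genes at an unadjusted p of 0.05 or less, the 2 subunits and 1 assembly factor with the highest and lowest fold changes, the 2 highest and lowest subunits per kilobase, the core subunits, Ndufab1, Ndufa4, Ndufa4l2, and the subunits of largest and smallest spread. Ndufs5, BC002163 and mt-Nd1 were added after their values were seen. The values of 1 subunit are not reported here, though it is held in the counts and medians.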

Additional observations from a re-analysis of the deposited data

Results flagged for a closer look

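In 134 groups of 5 values (members, mt-Nd genes, other assembly factors and the pseudogenes BC002163 and Gm15920, by group), 6 had a sample far from the other 4 by Dixon's ratio, and chance gives about 1 in 20. Ndufaf1, a chaperone of the membrane arm, was at 11.5 CPM in NR-treated replicate 1, with the others at 12.7 to 12.9 CPM. Ndufaf3 was at 26.9 CPM in the same mouse, against 31.2 to 32.9 CPM. Ndufs7 was at 155 CPM in non-treated replicate 5, against 134 to 138 CPM, in the library with the highest value of 9 subunits. mt-Nd5 was at 4000 CPM in NR-treated replicate 2, against 2490 to 2830 CPM, in the library with the highest sum of mt-Nd genes. Tmem126b was at 31.7 CPM in non-treated replicate 3, against 33.9 to 34.8 CPM. Nubpl, which delivers iron-sulphur clusters to complex I, was at 5.75 CPM in non-treated replicate 2, against 8.09 to 8.24 CPM.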

How the results depend on the processing

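The counts of subunits and assembly factors at an adjusted p of 0.05 were 0 under every alternative run for them. The lowest adjusted p of any member or mt-Nd gene was 0.380 over the other settings and the fits without 1 library, and was not recorded per gene where a pair of libraries was left out. Subunits called at an unadjusted p of 0.05 numbered 1, the main value, under DESeq2 size factors, both other filters, robust dispersion and the DESeq2 test. They numbered 3 with library size alone (Ndufa8, Ndufab1 and Ndufb8), 0 without NR-treated replicates 3 and 5, 0 without non-treated replicates 3 and 4 (both chosen after seeing the data), and 0 to 3 when leaving out 1 sample at a time. They were 3 without NR-treated replicate 1 or non-treated replicate 5, 2 without NR-treated replicate 5 or non-treated replicate 2, and 0 without NR-treated replicate 3 or non-treated replicate 3 or 4. The share of all tested genes called is given here only for the main fit and the DESeq2 test. Whether the counts under other settings depart from such a share was not tested. Other assembly factors called numbered 0, and 0 to 1 when leaving out 1 sample (Ecsit, without non-treated replicate 5). The cause was not tested. The median log2 fold change of subunits stayed above 0, from 0.013 without non-treated replicates 3 and 4 to 0.079 without non-treated replicate 2. That of assembly factors ranged from 0.020 without non-treated replicates 3 and 4 to 0.095 without NR-treated replicate 1. The subunits above 0 numbered 22 to 35, and the share of all tested genes above 0 is given here for the main fit only.

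With the replicate number as a block, 0 subunits were called and the median was 0.052. Samples of the same number correlated at 0.17, -0.12, -0.22, 0.016 and 0.13 in their deviations from the group means. Only number 1 correlated best with its own number. These values gave no sign that the numbers pair the mice, but so few correlations cannot exclude it.

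Estimates close to 0 changed sign with the processing in 9 genes. With library size alone they were 0.022 for Ndufb11, 0.022 for Ndufa2, 0.025 for Ndufa11, 0.024 for Ndufc1, 0.021 for Ndufs5, 0.025 for Ndufa4l2, 0.00066 for Ndufaf7, 0.013 for Ndufaf8 and 0.013 for mt-Nd4l. With all genes of at least 1 read they were 0.0096 for Ndufb11, 0.0086 for Ndufa2, 0.012 for Ndufa11, 0.012 for Ndufc1, 0.0071 for Ndufs5, 0.012 for Ndufa4l2 and 0.0017 for Ndufaf8. With genes at 1 CPM in 5 samples they were 0.0055 for Ndufb11, 0.0048 for Ndufa2, 0.0079 for Ndufa11, 0.0075 for Ndufc1, 0.0042 for Ndufs5 and 0.0084 for Ndufa4l2. DESeq2 gave 0.00051 for Ndufa11, 0.00055 for Ndufc1 and 0.0027 for Ndufa4l2, and the block gave 0.0037 for Ndufa4l2. When 1 sample was left out, 26 genes changed sign at least once, over ranges of Ndufa11 (-0.019 to 0.035), Ndufa12 (-0.025 to 0.042), Ndufa13 (-0.058 to 0.022), Ndufa2 (-0.027 to 0.026), Ndufa4l2 (-0.098 to 0.086), Ndufa6 (-0.014 to 0.039), Ndufaf1 (-0.00043 to 0.083), Ndufaf7 (-0.048 to 0.011), Ndufaf8 (-0.040 to 0.036), Ndufb10 (-0.016 to 0.048), Ndufb11 (-0.014 to 0.028), Ndufb4 (-0.014 to 0.081), Ndufc1 (-0.030 to 0.055), Ndufc2 (-0.082 to 0.0099), Ndufs3 (-0.019 to 0.046), Ndufs5 (-0.036 to 0.026), Ndufs6 (-0.093 to 0.018), Ndufs7 (-0.0052 to 0.041), Ndufs8 (-0.016 to 0.020), Ndufv2 (-0.0035 to 0.061), mt-Nd1 (-0.059 to 0.11), mt-Nd2 (-0.038 to 0.094), mt-Nd3 (-0.0079 to 0.15), mt-Nd4l (-0.14 to 0.099), mt-Nd5 (-0.031 to 0.16) and mt-Nd6 (-0.041 to 0.18). The other 27 of 53 genes kept their sign throughout.

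Limits: genes with few reads, such as Ndufa4l2, have wide intervals, and for most members changes well below a fold of 1.15 are not resolved at this number of mice.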
